A study of Mus musculus with 9 samples.

Results

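The transforming growth factor beta (TGF-beta) genes described here are the 3 ligand genes Tgfb1, Tgfb2 and Tgfb3, the receptor genes Tgfbr1, Tgfbr2, Tgfbr3 and Eng, and the signal transducer genes Smad2, Smad3 and Smad4. They were chosen by name as the core of the pathway, with earlier results of these data known, so shares called beside those of all genes are descriptions. They were matched by symbol to the Ensembl identifiers of a table of raw read counts, where they make up 10 of 35275 genes. All 10 passed the filter on low counts that left 15825 genes for testing. RNA was sequenced from the anterior segment of the mouse eye (cornea, iris, ciliary body and drainage structures, without the lens) at postnatal day 0. The 3 wildtype libraries were Col4a1+/+ and the 6 mutant libraries were Col4a1+/G1344D, heterozygous for a missense allele of the gene for collagen IV chain alpha 1. A missense allele leaves the RNA level of Col4a1 no check on the labels. Each library pooled 4 eyes from 2 mice, so p-values measure the spread between pools, and the labels give no strain, litter or sex.

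TGF-beta ligands are secreted in a latent form that is stored in the extracellular matrix and has to be released before it can bind. The freed dimer is held by the type II receptor kinase (Tgfbr2), which recruits and phosphorylates the type I kinase (Tgfbr1), and the co-receptors betaglycan (Tgfbr3) and endoglin (Eng) modify how ligands reach this pair. The activated type I receptor phosphorylates SMAD2 and SMAD3, which join SMAD4 and enter the nucleus. In the anterior segment the pathway is known for its part in the neural crest cells that build the corneal stroma, corneal endothelium and drainage tissue, and TGF-beta 2 is the isoform best known from aqueous humour and glaucoma.

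The libraries held between 25995340 and 35306935 counts. Abundant transcripts of the tissue were present in every group, such as the epithelial keratin gene Krt15 (mean 3870 CPM, counts scaled to library size, in wildtype and 3608 in mutant) and the pigment cell gene Pmel (8343 and 7722 CPM). Traces of lens were small: 10 lens markers summed to between 49.7 and 56.8 CPM in wildtype and between 37.0 and 44.3 CPM in mutant libraries, with Lim2 at 0. The sum of 10 retina markers was between 104 and 129 CPM in wildtype and between 97.4 and 112 CPM in mutant libraries. Most of it was Otx2, at a mean of 101 CPM in wildtype and 92.9 CPM in mutant. The libraries differed in reads on Gm42418, a gene that overlaps ribosomal RNA, which took between 0.0663% and 0.0708% of the counts in wildtype 2, wildtype 3 and mutant 2 and between 4.11% and 6.91% in wildtype 1 and the other mutants.

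All 10 genes had a fitted log2 fold change of mutant over wildtype above 0, as had 49.9% of all tested genes, and the median over the 10 genes was 0.28 against -0.0019 over all tested genes. Of these genes, 5 rose and 0 fell (edgeR quasi-likelihood test, Benjamini-Hochberg adjusted p under 0.05 over all tested genes): the ligand genes Tgfb1 and Tgfb2, the type II receptor gene Tgfbr2 and both co-receptor genes, Tgfbr3 and Eng. Of all tested genes 19.2% were called, 9.7% higher and 9.47% lower. Every mutant library lay above every wildtype library for 5 members, Tgfb2, Tgfbr3, Eng, Smad3 and Smad4, where 10.8% of tested genes did so. The changes of the 5 called genes were small, from 1.25-fold for Tgfb2 to 1.53-fold for Tgfbr3. The number of members called fell to 1, Tgfbr3, without wildtype 1 (1.88% of genes called higher) and to 2, Tgfbr3 and Tgfb2, without wildtype 3 (5.25%). Without wildtype 2 it was 6, Smad3 being added (9.48%).

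Leaving out mutant 1, 2, 4, 5 or 6 gave 5 members each, against 10.8%, 9.38%, 9.9%, 9.03% and 8.02% of genes called higher, and leaving out mutant 3 gave 4, without Tgfb1 (7.68%). RLE size factors, upper quartile factors and no filter on low counts also gave 5 (9.91%, 8.38% and 7.1%), and total counts alone gave 4 (7.56%). DESeq2 and limma-voom with quality weights gave 7 each (12.4% and 14.9%), a stricter filter on low counts 6 (11.7%), and a term for the replicate number 3 (5.14%). Tgfb2, Tgfbr2 and Tgfbr3 were called under each setting of this paragraph.

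**Figure D1:**
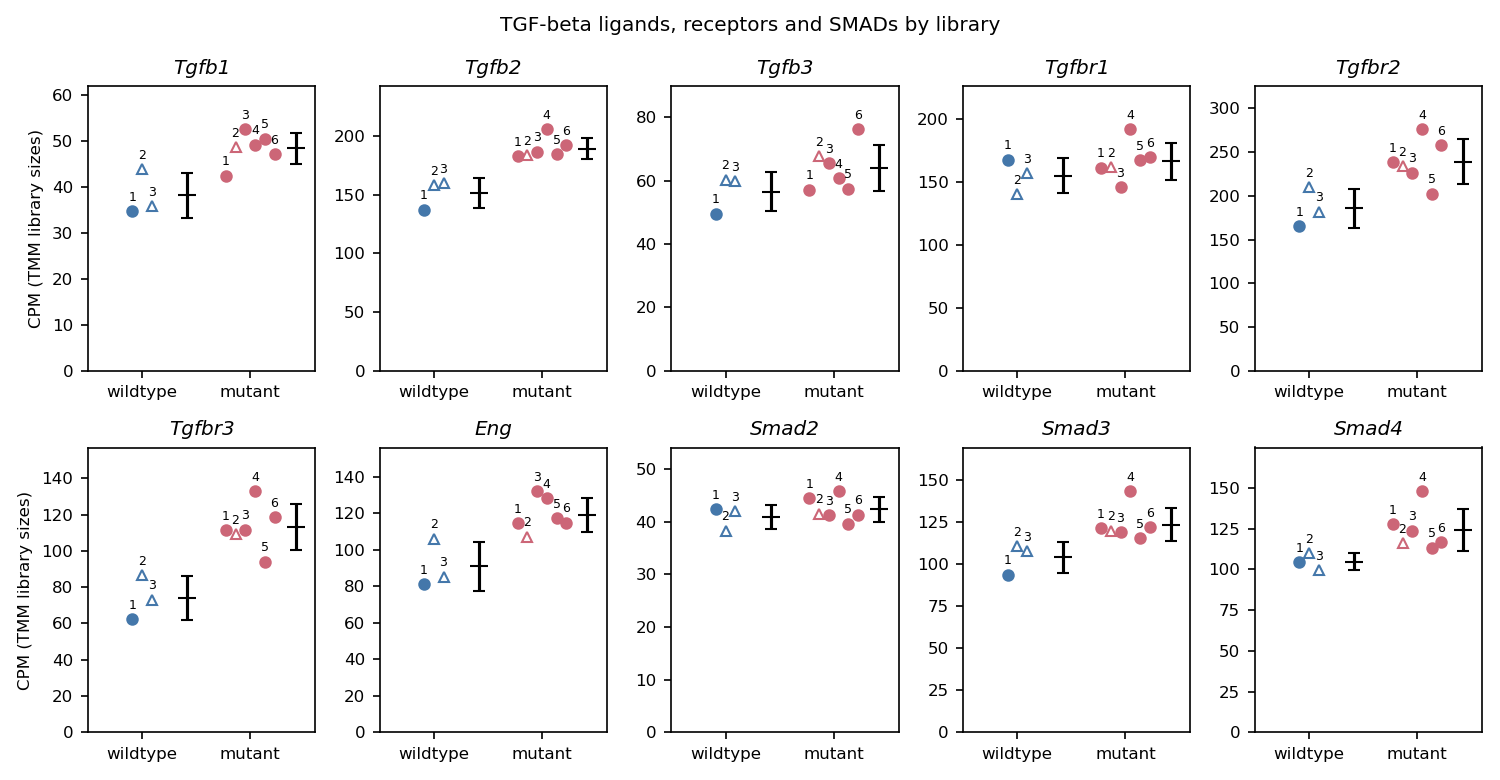
CPM, with TMM library sizes, of the 10 genes in 3 wildtype (blue) and 6 mutant (red) libraries. Numbers are the replicates, filled circles are libraries with at least 1% of counts on Gm42418 and open triangles those with less, and black bars are mean and SD. Mutant libraries of Tgfb2, Tgfbr3, Eng, Smad3 and Smad4 all lie above the wildtype libraries, while Tgfbr1 and Smad2 overlap throughout.

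For the called genes that matched an entry in the RefSeq promoter table of GRCm38.p6, the 250 bases upstream of the annotated start are shown, because these genes rose together and their promoters differ in make-up. Of the 10 genes, 6 were matched with a printable entry, Smad3 and Tgfbr1 besides these 4. Sequences read 5′ to 3′ in the direction of the gene, and capitals mark matches on either strand to 6 motifs. The core of a SMAD-binding element was searched as CAGAC, and the TATA box was searched by its letters TATAAA. The E-box was taken as the palindrome CACGTG, and for CRE/ATF factors the core was TGACG. The GC box bound by Sp1 was written GGGCGG, and the last motif was the ETS core with the letters CAGGAA. The windows are chr7:25686752-25687001, plus strand, for Tgfb1, chr1:186705990-186706239, minus strand, for Tgfb2, chr9:116175364-116175613, minus strand, for Tgfbr2, and chr2:32646345-32646594, plus strand, for Eng.
Tgfb1: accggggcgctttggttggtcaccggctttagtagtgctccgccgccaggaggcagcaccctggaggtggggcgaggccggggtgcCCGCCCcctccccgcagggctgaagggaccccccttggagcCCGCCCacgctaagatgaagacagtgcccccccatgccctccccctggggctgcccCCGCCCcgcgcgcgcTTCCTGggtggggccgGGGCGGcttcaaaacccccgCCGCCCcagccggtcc
Tgfb2: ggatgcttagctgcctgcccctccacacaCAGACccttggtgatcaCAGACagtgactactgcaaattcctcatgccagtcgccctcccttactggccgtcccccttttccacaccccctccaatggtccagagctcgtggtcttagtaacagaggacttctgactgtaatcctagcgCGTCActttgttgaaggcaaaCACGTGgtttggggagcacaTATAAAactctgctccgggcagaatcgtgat
Tgfbr2: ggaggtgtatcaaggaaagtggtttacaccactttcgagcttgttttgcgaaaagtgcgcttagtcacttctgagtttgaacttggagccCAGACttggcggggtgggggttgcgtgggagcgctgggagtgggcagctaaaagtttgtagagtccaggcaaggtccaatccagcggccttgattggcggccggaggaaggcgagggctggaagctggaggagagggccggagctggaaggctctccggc
Eng: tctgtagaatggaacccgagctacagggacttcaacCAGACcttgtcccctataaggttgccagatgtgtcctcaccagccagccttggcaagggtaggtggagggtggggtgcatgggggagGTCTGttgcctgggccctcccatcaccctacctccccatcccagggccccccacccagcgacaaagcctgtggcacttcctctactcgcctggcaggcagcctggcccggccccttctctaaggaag
The Tgfb1 window was 75.2% G or C and held 5 GC boxes, a motif found in 32.7% of 32851 promoter windows of the same length. The Tgfb2 window was 53.6% G or C, with a TATA box starting 31 bases upstream of the start, an E-box at 51 and a CRE/ATF core at 72. These 3 motifs occurred in 12.4%, 6.02% and 17.8% of all windows. The SMAD core CAGAC was found at 2 places in Tgfb2 and Eng and 1 in Tgfbr2, and in none of these bases of Tgfb1, but 42.2% of all windows hold it. A match is a description of the letters and was not tested as a binding site.

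Among the ligands, Tgfb2 (ENSMUSG00000039239, chromosome 1, 186622792 to 186705989 of GRCm38, minus strand) was the most abundant, and it rose. It stood at 137, 158 and 159.9 CPM in wildtype 1 to 3 and at a lowest, median and highest of 183, 185.5 and 206 CPM in the mutants. The groups did not overlap, with 5 of the mutant libraries between 183 and 192 CPM and mutant 4 above them. The change was 1.25-fold, log2 0.32 (SE 0.0752, edgeR adjusted p = 0.0096), and it lost its call only without wildtype 1 (log2 0.25, edgeR adjusted p = 0.0874) among the alternatives run. An antisense gene, Gm29491, shares 124 bases of exon with Tgfb2, and the strand setting of the counting was not known here.

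Tgfb1 (ENSMUSG00000002603, chromosome 7, 25687002 to 25705077, plus strand) encodes the isoform most associated with blood cells and platelets. It had 34.7, 43.9 and 35.8 CPM in wildtype 1 to 3, and 42.5, 48.9 and 52.5 CPM as the lowest, median and highest of the mutants. Mutant 1, the lowest mutant, lay under wildtype 2, and the other 5 mutants lay above all wildtype libraries. The rise was 1.27-fold, log2 0.34 (SE 0.0992, edgeR adjusted p = 0.0246). It lost its call without wildtype 1 (edgeR adjusted p = 0.16), wildtype 3 (0.112) or mutant 3 (0.0552), and with no scaling factors (0.0527).

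Markers of blood and immune cells, some of which make TGF-beta 1, were set beside it. Of 13 macrophage markers, 4 were called higher and 0 lower, and their sum was between 297 and 312 CPM in wildtype and between 411 and 573 CPM in mutant libraries, with none at 0. The called 4 were Lyz2, Cd68, Itgam and Adgre1, and the largest rise in CPM was that of Lyz2, from a mean of 30.9 to 141.6 CPM. Other markers, among them Csf1r (43.6 and 48.2 CPM), C1qa, Aif1 and Cx3cr1, were not called. Of 8 platelet markers, of which 6 were tested, 0 were called by edgeR (1, Gp1bb, at an unadjusted p of 0.0263, with an adjusted p of 0.0965), and their sum was between 60.3 and 69.8 CPM against 49.25 and 91.9 CPM. Of 8 red cell markers 4 were called higher and 0 lower, and their sum was between 533.5 and 939.8 CPM in wildtype and between 1797 and 8788 CPM in mutant libraries. Without wildtype 1, 1 red cell marker was called higher, and without wildtype 3, 2 were. Tgfb1 came to between 11.5% and 14.4% of the macrophage sum in wildtype and between 8.7% and 11.95% in mutant libraries. The part of these cells in the rise of Tgfb1 was not tested, and in bulk tissue a change in the number of cells and a change in RNA per cell cannot be told apart.

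Tgfb3 (ENSMUSG00000021253, chromosome 12, 86056745 to 86079041, minus strand), the third isoform, did not pass the test. It had 49.6, 60.2 and 59.75 CPM in wildtype 1 to 3 and a lowest, median and highest of 57.1, 63.1 and 76.1 CPM in the mutants, which overlap. The fitted change was log2 0.18 (SE 0.104, edgeR adjusted p = 0.238), with a 95% interval of 0.973-fold to 1.32-fold.

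Of the signalling receptor genes, the type II gene was called and the type I gene was not, while the difference between them did not pass its own test (log2 ratio of Tgfbr2 over Tgfbr1 higher by 0.26 in mutant, exact permutation p = 0.0595, 0.119 adjusted over 8 ratios). Tgfbr2 (ENSMUSG00000032440, chromosome 9, 116084293 to 116175360, minus strand) had 165, 209.5 and 182 CPM in wildtype 1 to 3 and a lowest, median and highest of 202, 236 and 276 CPM in the mutants. Mutant 5 lay under wildtype 2, and the other 5 mutants lay above every wildtype library. It rose 1.29-fold, log2 0.37 (SE 0.0989, edgeR adjusted p = 0.0185). Tgfbr2 has one of the longest exon lengths of these genes, 8187 bases, and with a smooth trend of expression on exon length removed from each library its change was log2 0.21 (edgeR adjusted p = 0.0836). It also lost its call without wildtype 1 (0.139) or wildtype 3 (0.0736).

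Tgfbr1 (ENSMUSG00000007613, chromosome 4, 47353222 to 47414931, plus strand), the type I kinase that phosphorylates the SMADs, had 167.5, 140.2 and 156.5 CPM in wildtype 1 to 3. Its mutant libraries ran from 146 CPM to 191 CPM with a median of 164, so the groups overlap, and wildtype 1 was higher than 4 of the 6 mutants. The fitted change was log2 0.10 (SE 0.0869, edgeR adjusted p = 0.443), with a 95% interval of 0.945-fold to 1.22-fold. Its sign turned to log2 -0.0065 with the exon length trend removed.

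Both co-receptor genes rose. Tgfbr3 (ENSMUSG00000029287, chromosome 5, 107106570 to 107289629, minus strand) encodes betaglycan, the membrane proteoglycan that presents TGF-beta 2 to the signalling receptors. It had 62.3, 86.6 and 73.1 CPM in wildtype 1 to 3 and a lowest, median and highest of 94.1, 111.5 and 133 CPM in the mutants. The groups did not overlap, the nearest pair being wildtype 2 and mutant 5. The rise was 1.53-fold, log2 0.61 (SE 0.112, edgeR adjusted p = 0.00291), and 5.31% of tested genes had a larger fold change. Its call held in every alternative run, with adjusted p-values up to 0.0344, reached without wildtype 1.

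Eng (ENSMUSG00000026814, chromosome 2, 32646595 to 32682669, plus strand) encodes endoglin, the co-receptor of endothelial cells that also binds BMP9. It had 81.3, 106 and 85.3 CPM in wildtype 1 to 3 and a lowest, median and highest of 107, 116 and 132 CPM in the mutants. The groups did not overlap, but wildtype 2 and mutant 2 lay close to each other. The rise was 1.31-fold, log2 0.39 (SE 0.0954, edgeR adjusted p = 0.0114), and the call was lost without wildtype 1 (edgeR adjusted p = 0.0974) or wildtype 3 (0.0646). The gene Fpgs on the other strand shares 61 bases of exon with Eng.

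Vascular endothelial markers moved with Eng. Of 11 such markers, 8 were called higher and 0 lower, and their sum was between 543 and 632 CPM in wildtype and between 740 and 874.5 CPM in mutant libraries. Eng was between 15.0% and 16.8% of that sum in wildtype and between 14.4% and 16.3% in mutant libraries, so the groups overlap once Eng is set against the markers. This was not particular to Eng. Tgfbr2 (30.4% to 33.1% in wildtype, 26.1% to 33.15% in mutant) and Tgfb1 (6.4% to 6.9% and 5.6% to 6.5%) also overlapped. Tgfb2 did not, at 25.0% to 28.9% in wildtype and 23.1% to 24.8% in mutant libraries. The junction cadherin gene Cdh5 rose 1.59-fold. Acvrl1, the endothelial type I receptor that pairs with endoglin, singled out after seeing its value, was not called at 57.5 ± 6.33 CPM (SD, n = 3) in wildtype and 59.9 ± 2.48 CPM (SD, n = 6) in mutant (edgeR adjusted p = 0.679). Without wildtype 1, 1 endothelial marker, Cdh5, was called higher, and without wildtype 3, 5 were. The part of endothelial cells in the rise of Eng was not tested.

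**Figure D2:**
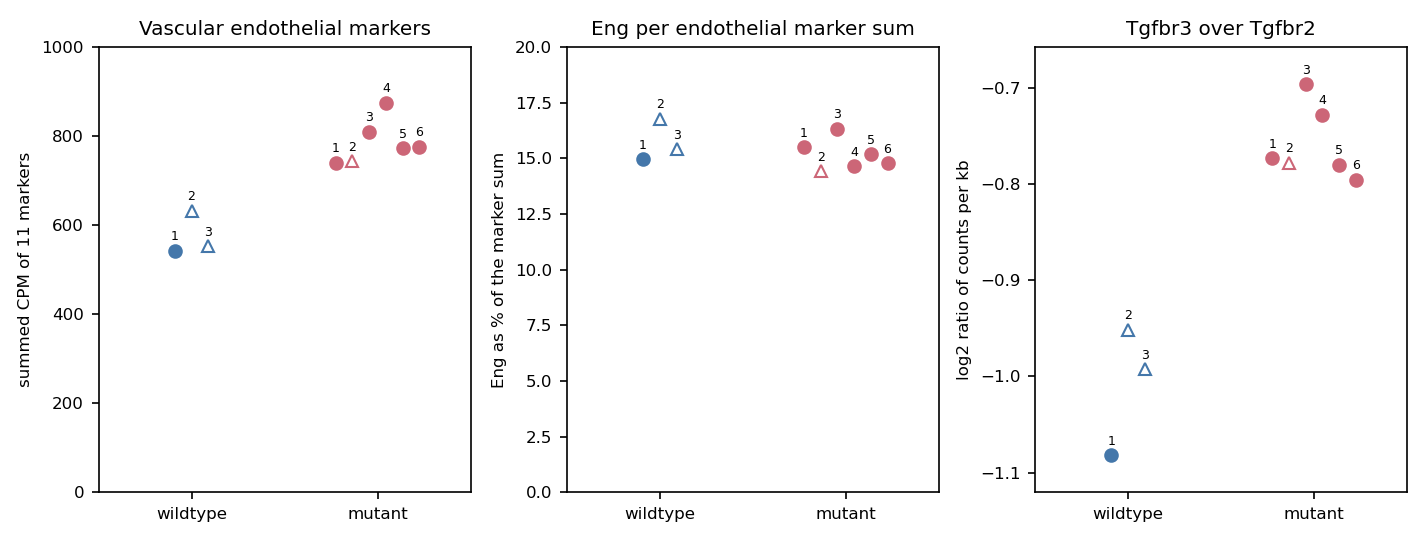
By library, from left to right: the summed CPM of 11 vascular endothelial markers, Eng as a percentage of that sum, and the log2 ratio of Tgfbr3 over Tgfbr2 in counts per kb of exon (axis not from 0). Numbers are replicates and open triangles are the libraries with little Gm42418. The marker sum separates the groups, Eng per marker sum does not (14.4% to 16.8% over all libraries), and the Tgfbr3 to Tgfbr2 ratio of every mutant lies above every wildtype.

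None of the 3 SMAD genes passed the test with all libraries in edgeR. Smad3 (ENSMUSG00000032402, chromosome 9, 63646767 to 63757994, minus strand) had 93.8, 111 and 108 CPM in wildtype 1 to 3 and a lowest, median and highest of 116, 121 and 144 CPM in the mutants. Smad4 (ENSMUSG00000024515, chromosome 18, 73639009 to 73703780, minus strand), the common partner, had 105, 110.0 and 99.7 CPM in wildtype 1 to 3 and 113, 120.4 and 148 CPM as the lowest, median and highest of the mutants. For both genes all 6 mutants lay above the wildtype libraries, and mutant 4 was the highest. The fitted changes were log2 0.25 (SE 0.0853, edgeR adjusted p = 0.0532) for Smad3 and log2 0.25 (SE 0.0883, edgeR adjusted p = 0.0592) for Smad4, just outside the threshold. DESeq2 called both (adjusted p = 0.0354 and 0.0432), as did limma-voom with quality weights (adjusted p = 0.0366 and 0.012), and edgeR also called Smad3 under a stricter filter (adjusted p = 0.0469) and without wildtype 2 (adjusted p = 0.0482).

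Smad2 (ENSMUSG00000024563, chromosome 18, 76241580 to 76310963, plus strand), the other receptor-activated SMAD of this branch, had 42.4, 38.3 and 41.95 CPM in wildtype 1 to 3. Its mutant libraries ran from 39.65 to 45.8 CPM, overlapping the wildtype. The fitted change was log2 0.05 (SE 0.0856, edgeR adjusted p = 0.723), with a 95% interval of 0.913-fold to 1.17-fold, and its sign turned to log2 -0.12 with the exon length trend removed.

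Ratios of these genes within a library do not depend on how libraries are scaled, and 8 were compared by an exact two-sided permutation test over the 84 ways to assign the labels. The ratio of Tgfbr3 over Tgfbr2, in counts per kb of exon, was 0.497 in wildtype and 0.591 in mutant libraries (geometric means). On the log2 scale it was -1.08, -0.95 and -0.99 in wildtype 1 to 3 and between -0.80 and -0.70 in the mutants, so the groups did not overlap. The difference was 0.25, with an exact permutation p of 0.0119, the smallest that 84 assignments can give, and 0.0952 after Benjamini-Hochberg adjustment over the 8 ratios. With the exon length trend removed the difference was 0.30, with the same unadjusted exact permutation p of 0.0119 and an adjusted one of 0.0476. The adjusted value was lower because Smad4 over Smad2 then also reached 0.0119. By this adjustment a ratio at that floor could not pass unless other ratios were low as well, so the pass is no stronger result for Tgfbr3 over Tgfbr2.

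The ratios to Smad2 did not pass after adjustment. Smad3 over Smad2 was 4.03 in wildtype and 4.62 in mutant libraries, and Smad4 over Smad2 was 6.06 and 6.93 (exact permutation p = 0.0476 for each, 0.119 adjusted). With the exon length trend removed, the Smad4 to Smad2 difference was 0.38 on the log2 scale with an adjusted exact permutation p of 0.0476. The other 5 ratios gave adjusted exact permutation p-values between 0.119 and 0.833. Among them Tgfb2 over Tgfb1 was 3.47 in wildtype and 3.41 in mutant libraries, and Eng over Tgfbr2 was 0.989 and 1.01. The groups overlap in both of these ratios. The size of the Tgfb2 to Tgfb1 ratio, though not its log2 difference between groups, depends on the length taken for Tgfb1.

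Per length, as CPM per kb of exon averaged over the 9 libraries, Smad4 (31.8) and Tgfb2 (30.5) were the highest of the 10 genes, followed by Eng (27.1), Tgfbr2 (27.0), Tgfbr1 (24.8), Smad3 (21.1), Tgfb3 (18.2), Tgfbr3 (15.3), Tgfb1 (8.92) and Smad2 (4.77). The ranges of neighbours in this order overlapped over the 9 libraries, except that Tgfb1 (at least 6.89) lay above Smad2 (at most 5.22) in every library. Tgfb2 made up between 50.7% and 52.7% of the ligand transcripts per length in wildtype and 51.05% to 56.2% in mutant pools. Tgfb1, and with it the Tgfb2 share of the ligands, depends on the length used. The annotated exons of Tgfb1 sum to 5042 bases but its longest transcript is 2573 bases, and with the latter its level was 17.5, above Tgfbr3 at 16.4. Smad2 stayed the lowest with either length, at 5.17 with the longest transcript.

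**Figure D3:**
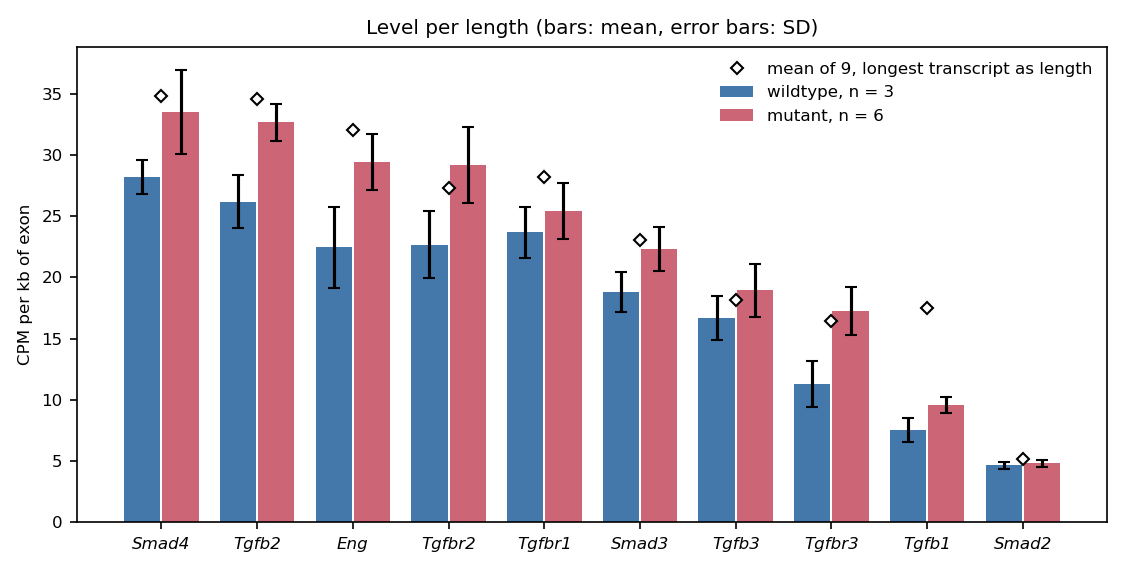
CPM per kb of exon, mean and SD, of the 10 genes in wildtype (n = 3) and mutant (n = 6) libraries, in order of the mean over all libraries. Open diamonds are the mean of the 9 libraries when the longest transcript is used as the length. Smad4 and Tgfb2 lead, Smad2 is lowest, and Tgfb1 moves from 8.92 to 17.5 with the choice of length.

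Within the groups, the extreme values lay mostly in a pair of libraries. Wildtype 1 was the lowest of the 9 libraries for 7 of the 10 genes, where 20.6% of all tested genes had their lowest value there. Mutant 4 was the highest for 7 of the 10, namely Tgfb2, Tgfbr1, Tgfbr2, Tgfbr3, Smad2, Smad3 and Smad4, where 21.1% of tested genes had their highest value there. Leaving out mutant 4 changed none of the members' calls, with Tgfbr3 at log2 0.56 and Tgfb2 at 0.30. Wildtype 1 is also the single wildtype library with a high share of Gm42418, so the comparison was repeated within that split, with no test since one side of each has a single library.

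Among libraries with a high share, 5 mutants over wildtype 1, the log2 ratio of mean CPM was 0.87 for Tgfbr3, 0.58 for Eng, 0.54 for Tgfbr2, 0.48 for Tgfb1 and 0.47 for Tgfb2. Among those with a low share, mutant 2 over the mean of wildtype 2 and 3, the values were 0.45, 0.16, 0.26, 0.29 and 0.21. The 5 called genes were higher in the mutant on both sides of the split, and by less on the side without wildtype 1. They had been called from these same libraries, so this is no separate evidence. The uncalled Tgfb3, Smad2, Smad3 and Smad4 were also higher on both sides, and Tgfbr1 was not. With the split as a covariate in the fit the same number of members, 5, was called (5.93% of genes called higher), and with the exon length trend removed 4 were called (5.8%).

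**Figure D4:**
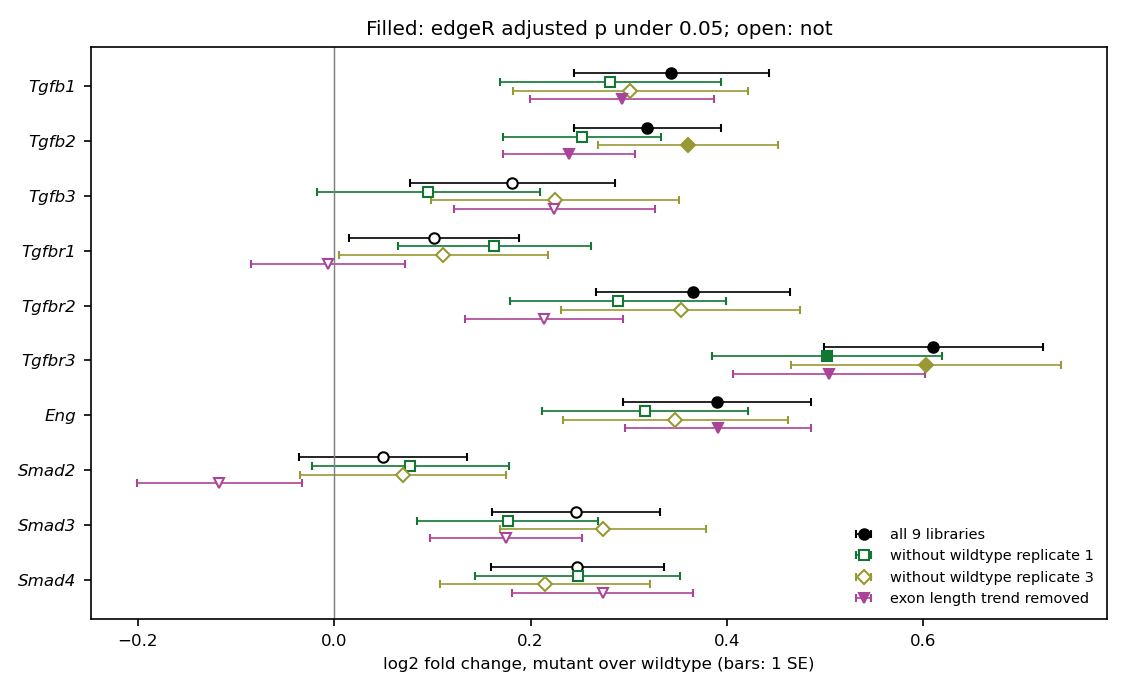
Log2 fold change of mutant over wildtype, with 1 SE, for the 10 genes fitted on all libraries, without wildtype 1, without wildtype 3 and with the exon length trend removed. Filled symbols passed an edgeR adjusted p of 0.05. Tgfbr3 is filled in all 4 fits, and Tgfbr1 and Smad2 cross 0 when the length trend is removed.

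The rest of the pathway was described by 7 lists holding 96 tested genes besides these 10, also chosen with earlier results of these data known. Of them 30 were called higher and 5 lower, with a median log2 fold change of 0.20, where 9.7% of all tested genes were called higher and 9.47% lower. Without wildtype 1, 13 were called higher (1.88% of all tested genes) and 0 lower, and with the exon length trend removed 24 were called higher (5.8%) and 3 lower. Those still called without wildtype 1 were Thbs1, Fbn1, Fbn2, Itgav, Bmpr2, Smad5, Fst, Skil, Pmepa1, Fn1, Ccn2, Tnc and Tgfbi. Several genes stand in 2 lists, so the counts by list are not independent.

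Of the genes for the latency and release of the ligands, 10 of 22 rose and 0 fell, with a median of 0.30. By the rule for named genes these were Thbs1, whose product activates latent TGF-beta, at 2.23-fold, the fibrillin genes Fbn1 and Fbn2, at 1.85-fold and 1.67-fold, and Itgav, at 1.42-fold. Itgav, the integrin chain shared by the integrins that release latent TGF-beta, averaged 130 ± 12.3 CPM in wildtype (SD, n = 3) and 184 ± 22.5 CPM in mutant (SD, n = 6), with an edgeR adjusted p of 0.00428. The other 6, singled out after seeing their values, were Plat, Ltbp3, Nrros, Ltbp4, Itgb8 and Mmp9, the last of which lost its call under 11 of the alternatives. The most abundant member, Itgb1, was not called, at 638 and 664 CPM. Ltbp3, Ltbp4 and Itgb8 lost their calls with the exon length trend removed.

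Receptors and SMADs of the BMP side, which share partners with Eng, had 3 of 7 tested members higher and 0 lower, with a median of 0.32 and with the ligand genes Gdf2 and Bmp10 at 0. Bmpr2, a type II receptor, rose 1.59-fold from 142 ± 15.7 (SD, n = 3) to 225 ± 42.0 CPM (SD, n = 6, edgeR adjusted p = 0.004). Smad5 rose 1.25-fold and Acvr1 1.32-fold, while Bmpr1a, the most abundant member, was not called at 224 and 252 CPM. In the activin and nodal branch, which also signals through SMAD2 and SMAD3, 1 of 11 rose and 0 fell, with a median of 0.15, a share near the 9.7% of all tested genes called higher. The gene that rose was Fst, for the activin-binding protein follistatin, at 1.40-fold, and Acvr2a, the most abundant member, was not called at 44.2 and 51.7 CPM.

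Of 13 inhibitory SMADs and feedback repressors 3 rose and 1 fell, with a median of 0.20, and the 1 lower call is below the 9.47% of all tested genes called lower. Skil and Ski, co-repressors of SMAD complexes, rose 1.42-fold and 1.24-fold and Pmepa1, which sequesters receptor SMADs, 1.31-fold. Dcn, a stromal proteoglycan that binds TGF-beta and is also a keratocyte marker, fell 1.35-fold and lost its call without wildtype 1 or wildtype 2. Of the other 9 keratocyte and mesenchyme markers, 4 were also called lower, Kera, Lum, Twist1 and Aldh3a1, at 1.84-fold, 1.46-fold, 1.42-fold and 1.38-fold, and Pdgfra was called higher. None of these kept its call without wildtype 1, and their part in the fall of Dcn was not tested. The inhibitory SMAD gene Smad7, singled out after seeing its value, was not called at 18.7 ± 3.96 (SD, n = 3) and 21.9 ± 1.87 CPM (SD, n = 6, edgeR adjusted p = 0.238).

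Of 16 SMAD anchors, adaptors and receptor regulators 4 rose and 1 fell, with a median of 0.12. Tgfbrap1, a receptor-associated protein gene, rose 1.38-fold, Dab2, an endocytic adaptor gene, 1.32-fold, the deubiquitinase gene Usp9x 1.47-fold and the ubiquitin ligase gene Wwp1 1.30-fold. The gene that fell, Strap, singled out after seeing its value, encodes a receptor-associated inhibitor and was 1.23-fold lower, and Fkbp1a, the most abundant member, was not called at 218 and 204 CPM. Of 15 nuclear partners of SMADs 4 rose and 0 fell, with a median of 0.20: Sp1, 1.34-fold, Ep300, 1.37-fold, Zeb2, 1.35-fold, and Snai1, 1.36-fold. Ctbp1, the most abundant, stood at 222 and 221 CPM, and Ep300 and Zeb2 lost their calls with the exon length trend removed. The called genes of both lists lost their calls without wildtype 1.

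Among 16 direct TGF-beta targets 7 rose and 3 fell, with a median of 0.26. Fn1, Ccn2, Tnc and Skil were the 4 with the lowest p, at 1.90-fold, 1.71-fold, 1.62-fold and 1.42-fold higher, and the collagen gene Col1a2, the most abundant, was not called at 17020 and 15890 CPM. Tgfbi and Pmepa1, outside the rule, also rose, at 1.37-fold and 1.31-fold, and Id1, Acta2 and Tagln fell, 1.41-fold, 1.26-fold and 1.36-fold. The last 3 lost their calls with the exon length trend removed. Acta2 and Tagln are smooth muscle genes, and the smooth muscle markers Actg2, Cnn1 and Myh11 were called lower in the same comparison, at 1.85-fold, 1.66-fold and 1.28-fold. These 3 belong to a list of 10 pericyte and smooth muscle markers, of which 4 were called higher, Abcc9, Cspg4, Pdgfrb and Notch3. The sum of that list overlapped between the groups, at 774 to 919 CPM in wildtype and 753 to 927 CPM in mutant libraries. The part of smooth muscle in the fall of Acta2 and Tagln was not tested.

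**Figure D5:**
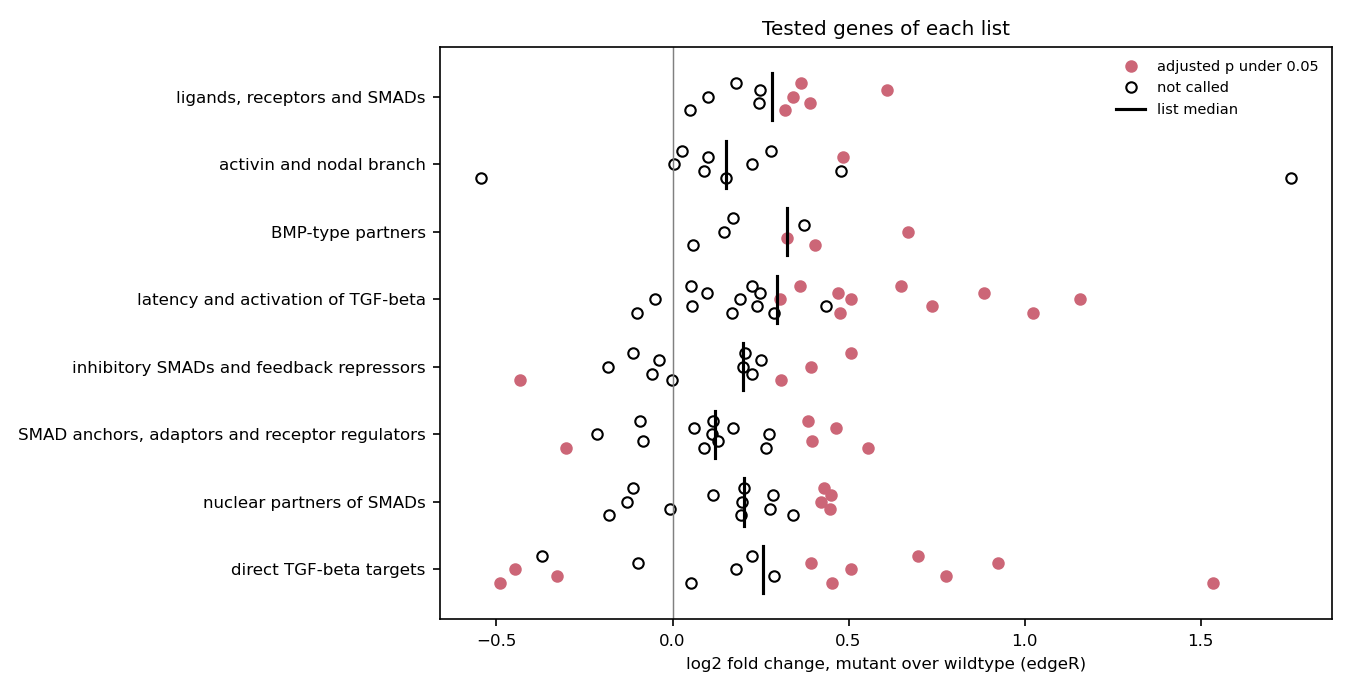
Log2 fold change of mutant over wildtype for each tested gene of the 10 described genes and of the 7 pathway lists. Red points passed an edgeR adjusted p of 0.05, open points did not, and black bars are list medians. The median of the 10 genes is 0.28, and those of the lists run from 0.12 to 0.32.

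The genes with the profile most like each called gene over the 9 libraries were sought among 11542 genes of at least 5 CPM, by the root mean square distance of centred log2 CPM. This is a description, and distances are shorter for genes of low spread. For Tgfb2 they were Celf2, Daam1 and Ap2b1 (distances 0.034, 0.0362 and 0.0363), and for Tgfb1 Sh3rf1 and Sipa1 (0.058 and 0.0629). For Tgfbr2 they were Lats2, Gpc3 and Tns1 (0.0478, 0.0529 and 0.0539), and for Eng Eif4ebp2, Son and Jup (0.0534, 0.065 and 0.0693). For Tgfbr3 they were the laminin chain gene Lamc1, the pericyte and fibroblast receptor gene Pdgfrb and the junction gene Tjp1 (0.06685, 0.0718 and 0.0727). Among the 10 genes themselves the closest pair was Tgfb2 and Smad3 (0.0571) and the farthest Tgfbr1 and Tgfbr3 (0.317).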

How the data were processed

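The tools named, per the submitters' processing notes, are STAR (2.6.1), HTSeq (0.6.1) and DESeq2 (1.6.3), on build GRCm38, with no roles; the strand setting is not given. The authors deposited whole-number counts of reads for each Ensembl identifier, not normalized, and 0 columns lacked a sample. Genes were placed with GENCODE release M21 (GRCm38), which held 34490 of the 35275 identifiers. Testing used edgeR 4.0.16 in R 4.3.3, TMM factors, its default filter by group, a robust quasi-likelihood fit on genotype over all 9 libraries and Benjamini-Hochberg adjustment over 15825 genes at 0.05. CPM use TMM library sizes. Intervals are from the t distribution of the fit. Ratios used counts per kb of exon with 0.5 added. Alternatives comprised RLE, upper quartile and no scaling factors, DESeq2 1.42.0, limma-voom (limma 3.58.1), other filters, a replicate block, a smooth trend on exon length removed (mgcv 1.9.3), a split at 1% of counts on Gm42418 as covariate, and leaving out each library. The members and gene lists were chosen with earlier results of these data known. Named were all members, up to 4 called genes per list by lowest p (the 2 lowest where none was called), the most abundant of each list, and the 3 nearest profiles of called members, skipping clone, model and pseudogene names; some genes that this rule or a count covers are not reported here. No 2 libraries within a group were alike within sampling noise (chi-square per degree of freedom of at least 14.4). The edgeR fit was also run on simulated data, with the outcome not reported here. Of 216 listed symbols, 215 were in the table.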

Additional observations from a re-analysis of the deposited data

Results flagged for a closer look

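Of 18 values examined over the 6 mutant libraries (the CPM of the 10 genes and the 8 ratios), 2 had one library farther from the rest than Dixon's critical value for 6 samples allows, and chance flags about 1 group in 20. Smad3 stood at 144 CPM in mutant 4, while the other 5 mutants lay between 116 and 122 CPM. The log2 ratio of Tgfbr2 over Tgfbr1 was -0.0501 in mutant 5, while the other 5 mutants lay between 0.20 and 0.31. No cause of either was tested.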

How the results depend on the processing

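The number of members called, 5 with all libraries, was between 1 and 6 when single libraries were left out, that of all genes, 3034, between 538 and 3265, and that of the pathway lists, 35, between 13 and 37. With single libraries left out the log2 fold changes ran from 0.28 to 0.46 for Tgfb1, 0.25 to 0.36 for Tgfb2, 0.096 to 0.24 for Tgfb3, 0.041 to 0.16 for Tgfbr1, 0.29 to 0.47 for Tgfbr2, 0.50 to 0.74 for Tgfbr3, 0.32 to 0.52 for Eng, 0.011 to 0.078 for Smad2, 0.18 to 0.30 for Smad3 and 0.20 to 0.29 for Smad4. All stayed above 0. The log2 difference of Tgfbr3 over Tgfbr2 ran from 0.21 to 0.28 and that of Smad4 over Smad2 from 0.14 to 0.28. Other settings that moved a count were limma-voom with quality weights (4694 genes called) and the Gm42418 split (1877). The replicate numbers were not treated as pairs: deviations of same-numbered libraries correlated at 0.095, 0.026 and -0.1. With a replicate block 3 members (5.14% of genes called higher) and 1485 genes were called, and Tgfb1 (log2 0.33, edgeR adjusted p = 0.0775) and Eng (0.38, 0.0583) were not. Tgfb1 was at 0.32 with total counts only, and Tgfbr2 at 0.21 with the exon length trend removed, both no longer called. Smad3 was called by DESeq2 (0.25), limma-voom (0.19) and under the stricter filter (0.25), and Smad4 by DESeq2 (0.25) and limma-voom (0.24). Removing the length trend brought the ratios Tgfbr3 over Tgfbr2 (0.30) and Smad4 over Smad2 (0.38) past the adjusted threshold. The unadjusted exact permutation p of Tgfbr3 over Tgfbr2 was 0.0119 with and without the trend. The causes were not tested. With the longest transcript as length, the levels per kb were 17.5 for Tgfb1, 34.5 for Tgfb2, 28.2 for Tgfbr1, 32.0 for Eng and 5.17 for Smad2. With 3 wildtype libraries, the fitted changes of Tgfb3 and Tgfbr1 did not stand out from the spread between libraries. The size of change that could have been detected is not reported here.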

Other observations

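Tgfbr3 was also set against the summed CPM of marker lists. It was between 11.5% and 13.7% of the vascular endothelial sum in wildtype and between 12.2% and 15.3% in mutant libraries, which overlap. Against the macrophage sum it was between 20.98% and 28.4% in wildtype and between 19.5% and 32.3% in mutant libraries, which overlap. The platelet sum gave 100.1% to 124.1% in wildtype and 102.4% to 270% in mutant libraries, which also overlap. For the keratocyte and mesenchyme sum the values were 0.62% to 0.97% and 1.44% to 2.14%, which do not overlap. In that keratocyte and mesenchyme list 5 markers were called lower and 1 higher. Against 10 pericyte and smooth muscle markers it was between 8.05% and 9.42% in wildtype and between 11.7% and 14.8% in mutant libraries, which do not overlap. Within that list 4 markers were called higher, Abcc9, Cspg4, Pdgfrb and Notch3, and 3 lower, Actg2, Cnn1 and Myh11 (Pdgfrb and Notch3 singled out after seeing their values), while its sum ran from 774 to 919 CPM in wildtype and from 753 to 927 CPM in mutant libraries. The part of these cell types in the rise of Tgfbr3 was not tested.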
